A study of Danio rerio with 6 samples.

Results

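The genes described here are those that encode cytokines, chemokines and their receptors in whole zebrafish larvae that had been exposed to alcohol as embryos. Members were chosen by symbol, with earlier results of these data known. They are interleukins and their receptors, and CC and CXC chemokines and their receptors. Also included were the TNF and TNF receptor superfamilies, interferons, and the cytokine receptor family B (crfb) genes. Left out were 1 interleukin gene and genes whose symbols only resemble interleukins. The rule found 160 members among 30713 named rows. By role, 29 are interleukin and interferon ligands, 38 their receptors, 50 chemokines, 21 chemokine receptors, 12 TNF superfamily ligands and 10 TNF superfamily receptors.

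The embryonic alcohol exposure (EAE) larvae were wild-type AB, a common laboratory line, and stood in 1% EtOH that was added at 12 hpf and removed at 5 dpf. They then spent 48 hours in water without EtOH, with paramecia as food, and were collected at 7 dpf. The control larvae were of the same line, age and feeding and received 0% EtOH. Each group had 3 pools of 30 homogenized whole larvae, so no tissue was separated and fewer cells of a type cannot be told apart from less RNA per cell. The labels describe siblings divided among tubes and the study's methods describe combined clutches, so the p-values measure the spread between these pools, which may in part be technical.

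Cytokines are secreted signals that immune and epithelial cells use to call, activate or restrain one another. Interleukins and interferons mostly bind paired receptor chains that signal through JAK kinases and STAT factors, whereas TNF family ligands bind receptors that recruit TRAF adaptors and activate NF-kB or caspases. Chemokines bind receptors with several membrane-spanning helices and direct the movement of leukocytes and, in the embryo, of germ cells and the lateral line primordium. At this larval age zebrafish rely on innate cells, chiefly neutrophils and macrophages, while T lymphocytes are only beginning to develop in the thymus.

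Counts on named genes ranged from 19921809 to 23638705 in EAE pools and from 17264955 to 20724876 in control pools. Levels are given as CPM, the count of a gene scaled to the TMM-adjusted size of its library. CPM are not corrected for gene length, so they compare pools for 1 gene and not 1 gene with another. The standard error (SE) belongs to the log2 fold change of EAE over control, and each adjusted p is from the quasi-likelihood test of edgeR, adjusted by Benjamini-Hochberg over 21617 genes. A gene is called where that adjusted p is under 0.05, and pool values are listed in the order of replicates 1, 2 and 3. The replicate numbers only name the pools. With 3 pools against 3, an exact two-sided permutation test of a single gene cannot go below 0.1 and was not used.

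Many members were scarce in whole larvae. No count was seen in any of the 6 pools for 7 members, *ccl32a.2*, *ccl33.2*, *ccl39.3*, *ccl39.4*, *ifnphi4*, *il17ra2* and *tnfsf13*, which allows up to 0.129 to 0.151 CPM in an EAE pool and 0.146 to 0.174 CPM in a control pool (a floor of 3 counts per pool, which covers counting error only). A further 4 members had 1 to 3 counts over all pools together, and 41 members, the 7 included, stayed under 10 counts in every pool. The filter on low counts removed 51 members (31.9%), against 29.6% of all named rows, and 109 were tested. The highest mean level of a member removed was 0.470 CPM and the lowest of a member tested was 0.485 CPM. Low counts were frequent among 3 classes, with 22 of 29 interleukin and interferon ligands, 23 of 50 chemokines and 10 of 21 chemokine receptors averaging under 1 CPM. In the other classes 3 of 38 interleukin and interferon receptors, 3 of 12 TNF ligands and 1 of 10 TNF receptors did so. Of the tested members 1, *ccr7*, passed the filter through the control pools only, and it was not called.

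At 7 dpf, 48 hours after the alcohol had been removed, 23 of the 109 tested members were higher in EAE larvae and 1 was lower. They included the interleukin *il13*, genes named for chains of its receptor and chemokines that attract neutrophils. The second zebrafish TNF gene *tnfb* and TNF receptor family genes were also among them. The increases were mostly small: the 23 folds ran from 1.16 in *tnfrsf11a* to 3.72 in *il13*, 8 reached 1.5-fold and 4 reached 2-fold. Members higher were 21.1% of those tested, beside 7.22% of all tested genes, and the 1 lower member stood beside 6.95% of all tested genes. At an unadjusted p under 0.05, 39 members were higher and 4 lower, beside 14.5% and 14.3% of all tested genes. In either direction 22.0% of tested members and 14.2% of all tested genes were called after adjustment.

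The shift was also seen without a threshold. The median log2 fold change of the tested members was 0.19, beside 8e-04 over all tested genes. Of the 109, 88 had a log2 fold change above 0 and 21 below, whereas all genes divided into 10842 and 10775. All 3 EAE pools lay above all 3 control pools in 42 members (38.5%) and below them in 6, against 16.0% of all tested genes in each direction. Of the same 109, 24 lay within 0.1 of 0 on the log2 scale. Summed over the members, EAE pools held 1493, 1447 and 1487 CPM and control pools 1361, 1355 and 1335 CPM, so that the groups did not overlap.

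**Figure D1:**
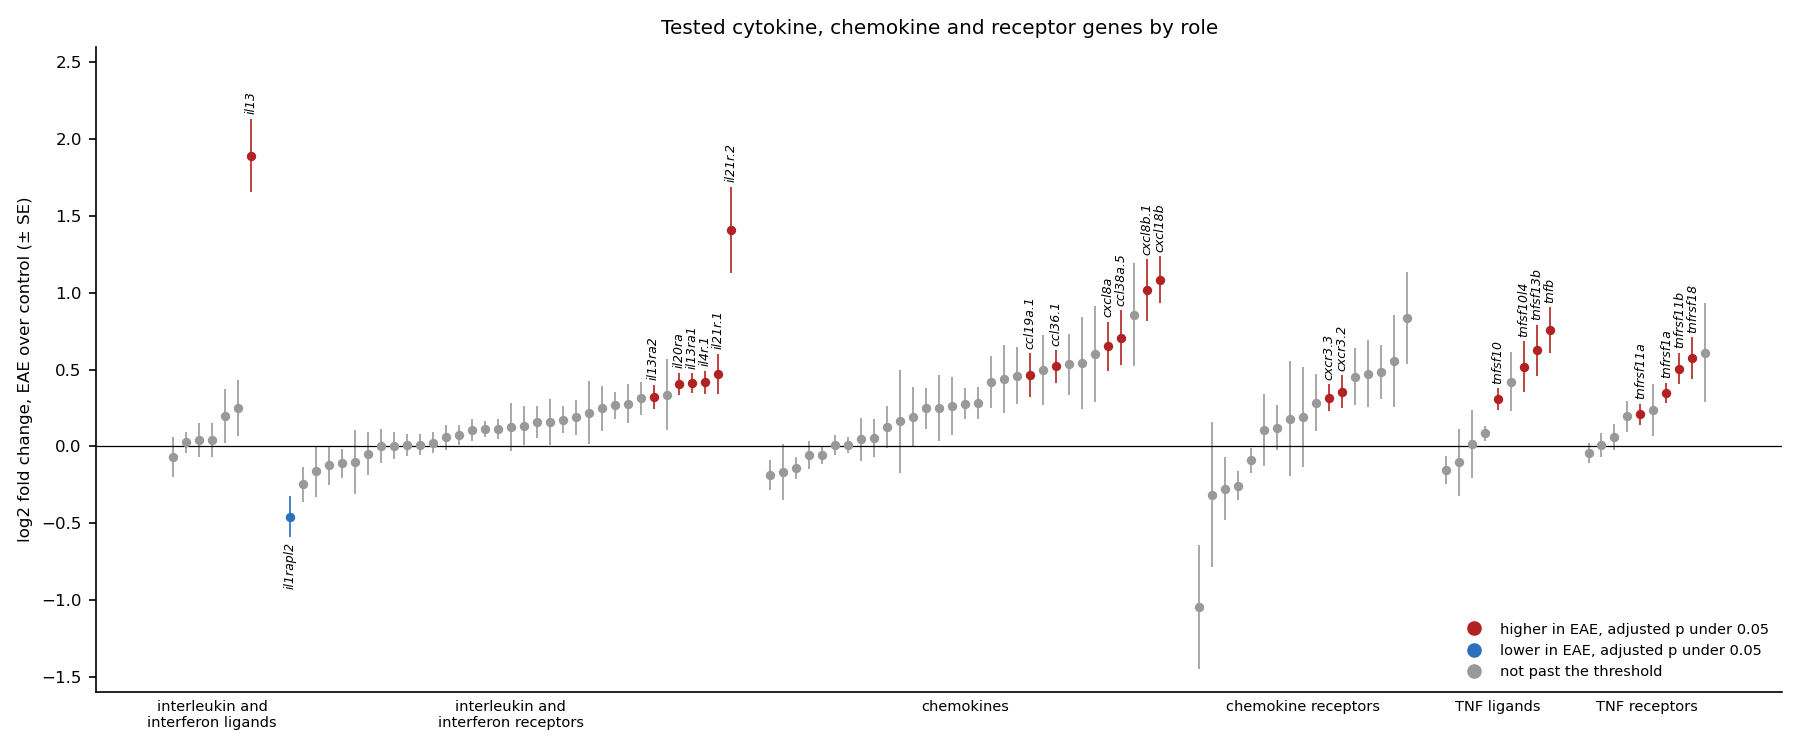
Log2 fold change of EAE over control (vertical axis) for each tested member, with bars of 1 SE, arranged along the horizontal axis by role and then by value, with colour showing whether the adjusted p was under 0.05. Called members lie above 0 in every role, from 0.21 for tnfrsf11a to 1.89 for il13, and il1rapl2 at -0.46 is the called member below 0.

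Read by CPM, calls fell in every range. Of 52 tested members with a mean under 5 CPM, 10 were higher and 1 was lower (21.2% called), beside 4.91% of all genes in that range (3.16% higher and 1.75% lower). Of 34 members at 5 to 20 CPM, 7 were higher (20.6%), beside 12.9% of all genes (6.76% higher). Of 23 members at 20 CPM or more, 6 were higher (26.1%) and 0 lower, beside 11.0% higher and 12.0% lower of all genes. In this range the share called in either direction was near the 23.0% of all genes, but the members' calls were all higher. The median SE of the members' log2 fold changes was 0.20, 0.11 and 0.07 from the lowest to the highest range.

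**Figure D2:**
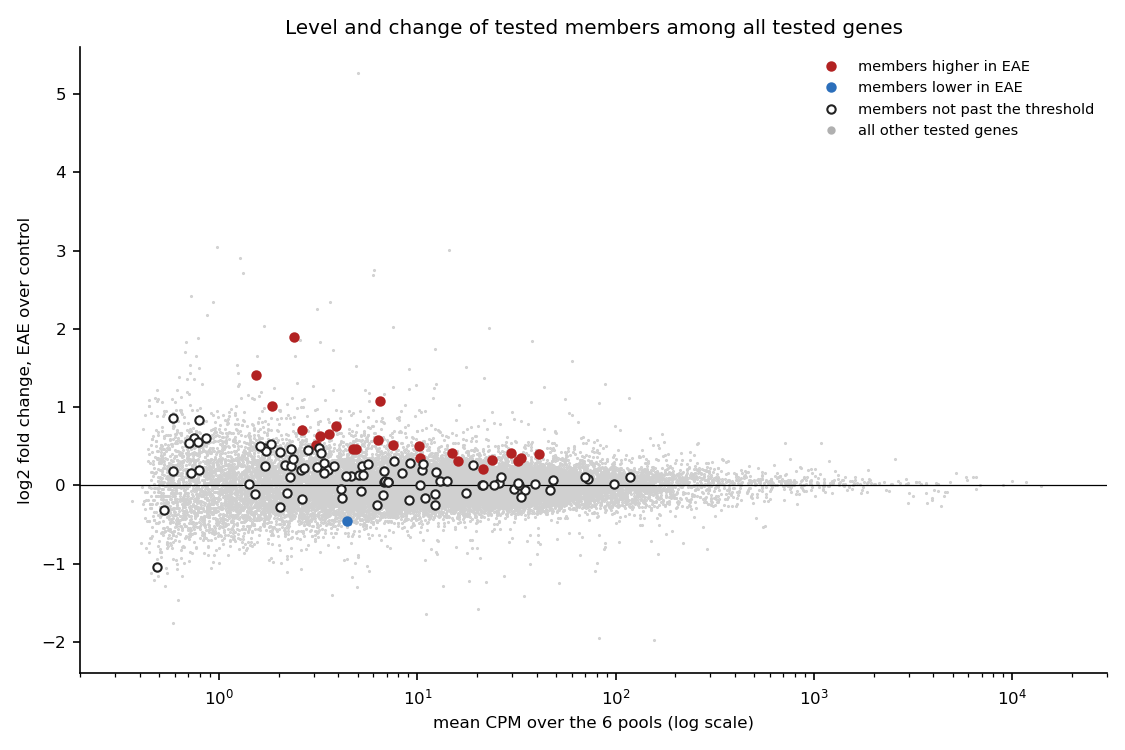
Mean CPM over the 6 pools (log scale) against the log2 fold change of EAE over control for all tested genes (grey) and the tested members (circles). Called members lie above 0 at low and high levels, il1rapl2 excepted, and il13 at 1.89 and il21r.2 at 1.41 are the highest of the tested members.

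The largest change among the tested members was in *il13*, the cytokine of type-2 immunity that acts on epithelia and macrophages. It was at 3.91, 4.70 and 2.62 CPM in EAE pools and at 0.857, 0.985 and 1.17 CPM in control pools, from 91, 95 and 52 counts against 17, 17 and 24. Every EAE pool lay above every control pool, and the EAE pools differed among themselves more than the controls did (3.74 ± 1.05 against 1.00 ± 0.155 CPM, SD, n = 3 each). The log2 fold change was 1.89 (SE 0.24, adjusted p = 4.6e-05).

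Genes named for receptor chains of this ligand rose with it, by less. In mammals IL-13 binds IL13RA1, which pairs with the IL-4 receptor alpha chain, while IL13RA2 binds IL-13 and serves mainly as a decoy. *il13ra1* was at 33.5, 34.7 and 33.0 CPM in EAE pools and 25.2, 26.5 and 24.4 CPM in control pools (log2 fold change 0.41, SE 0.06, adjusted p = 2.7e-04). *il4r.1*, a zebrafish copy of the IL-4 receptor alpha chain, was at 16.9, 16.6 and 17.9 CPM in EAE pools and 13.2, 12.7 and 12.5 CPM in control pools (log2 fold change 0.42, SE 0.08, adjusted p = 0.0018). In both genes the spread within a group was small beside the gap between groups. *il13ra2* was at 27.0, 29.3 and 23.3 CPM in EAE pools and 20.5, 21.0 and 22.2 CPM in control pools, with the nearest pools of the 2 groups close together (log2 fold change 0.32, SE 0.08, adjusted p = 0.012). *il4*, named for the other mammalian ligand of this receptor, had 7, 5 and 5 counts in EAE pools and 3, 2 and 3 in control pools. These were too few for the test. *stat6*, the STAT factor through which these receptors signal in mammals, was at 35.0 ± 1.84 CPM in EAE and 31.0 ± 1.41 CPM in control pools (SD, n = 3 each) and did not pass the test (log2 fold change 0.18, adjusted p = 0.072). These 6 genes were put together after their values had been seen, and no test was made of them as a group.

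Other interleukin receptors rose as well. Of the 35 tested members of the interleukin and interferon receptor class 6 rose and 1 fell (20% called, beside 14.2% of all tested genes), with a median log2 fold change of 0.13, and their summed level was 676, 667 and 677 CPM in EAE pools against 624, 612 and 600 CPM in control pools. *il20ra*, a chain of the receptors for the interleukin 20 family, which in mammals act on epithelia, was at 51.0, 47.5 and 41.7 CPM in EAE pools and 38.1, 34.2 and 33.5 CPM in control pools (log2 fold change 0.41, SE 0.07, adjusted p = 0.0012). All EAE pools were higher, with replicate 3 nearest to the controls.

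The neighbouring genes *il21r.1* and *il21r.2*, copies of the receptor for the lymphocyte cytokine interleukin 21, both rose. *il21r.2* was at 2.79, 2.57 and 1.36 CPM in EAE pools and 1.01, 0.753 and 0.777 CPM in control pools, from 65, 52 and 27 counts against 20, 13 and 16. EAE replicate 3 lay between the other EAE pools and the controls but did not overlap them (log2 fold change 1.41, SE 0.28, adjusted p = 0.0030). *il21r.1* was at 5.97, 5.25 and 5.94 CPM in EAE pools and 3.73, 4.34 and 4.32 CPM in control pools (log2 fold change 0.47, SE 0.13, adjusted p = 0.023).

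The single member that fell was *il1rapl2*, a relative of the IL-1 receptor accessory protein whose family acts at synapses in mammals. It was at 3.87, 3.51 and 3.83 CPM in EAE pools and 5.14, 5.21 and 5.05 CPM in control pools, with no overlap and little spread in either group (log2 fold change -0.46, SE 0.13, adjusted p = 0.027). Its relative *il1rapl1b* also had all EAE pools below all control pools, at 5.33, 6.14 and 5.64 CPM against 7.21, 6.31 and 6.70 CPM. It did not pass the adjustment (log2 fold change -0.25, SE 0.12, adjusted p = 0.17), and whether the 2 genes differ in their change was not tested. *il1rapl1a* averaged 39.5 CPM in EAE and 39.1 CPM in control pools (log2 fold change 0.01). Neuron markers were also lower in EAE larvae: 8 of 9 fell and none rose (88.9% called). Of all tested genes 6.95% were lower, and of those at 20 CPM or more 12.0%. Their median log2 fold change was -0.23, their summed level was 2505 to 2782 CPM in EAE and 3087 to 3145 CPM in control pools, and no marker was at 0. Without EAE replicate 1 or control replicate 1, 5 of the 9 were lower. The part of this in the *il1rapl2* result was not tested.

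The remaining interleukin and interferon receptors did not pass the test. *il6st*, the signal-transducing chain shared by the interleukin 6 family and the member with the highest CPM, was at 121, 126 and 123 CPM in EAE pools and 123, 109 and 110 CPM in control pools (log2 fold change 0.11, adjusted p = 0.17), the first control pool lying among the EAE pools. *il6r*, the binding chain for interleukin 6, had 22.4, 18.1 and 22.0 CPM in EAE pools and 16.4, 19.3 and 16.4 CPM in control pools, with overlap (log2 fold change 0.27, adjusted p = 0.055). *crfb16* and *crfb15* passed only before adjustment, with log2 fold changes of 0.31 (adjusted p = 0.059) and 0.28 (adjusted p = 0.15). *il10rb* and *crfb4*, receptor chains of the interleukin 10 family, had log2 fold changes of 0.11 and 0.17 (adjusted p = 0.27 and 0.20). *il17rc*, a chain of the interleukin 17 receptor, averaged 49.2 CPM in EAE and 46.9 CPM in control pools (log2 fold change 0.07, adjusted p = 0.46). The lymphocyte receptor chains *il2rga*, the common gamma chain, and *il7r* had log2 fold changes of 0.13 and -0.16 (adjusted p = 0.53 and 0.56).

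Among the ligands of this class only *il13* was called. Of 29 genes, 7 were tested (14.3% called, beside 14.2% of all tested genes), with a median log2 fold change of 0.04. *il16* (26.0 CPM in EAE and 25.6 CPM in control pools), *il15*, which sustains natural killer cells (7.23 and 7.03 CPM), and *il34*, a ligand of the macrophage receptor Csf1r (7.19 and 7.02 CPM), had log2 fold changes of 0.03, 0.04 and 0.04. These differences lay within the spread of the pools.

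**Figure D3:**
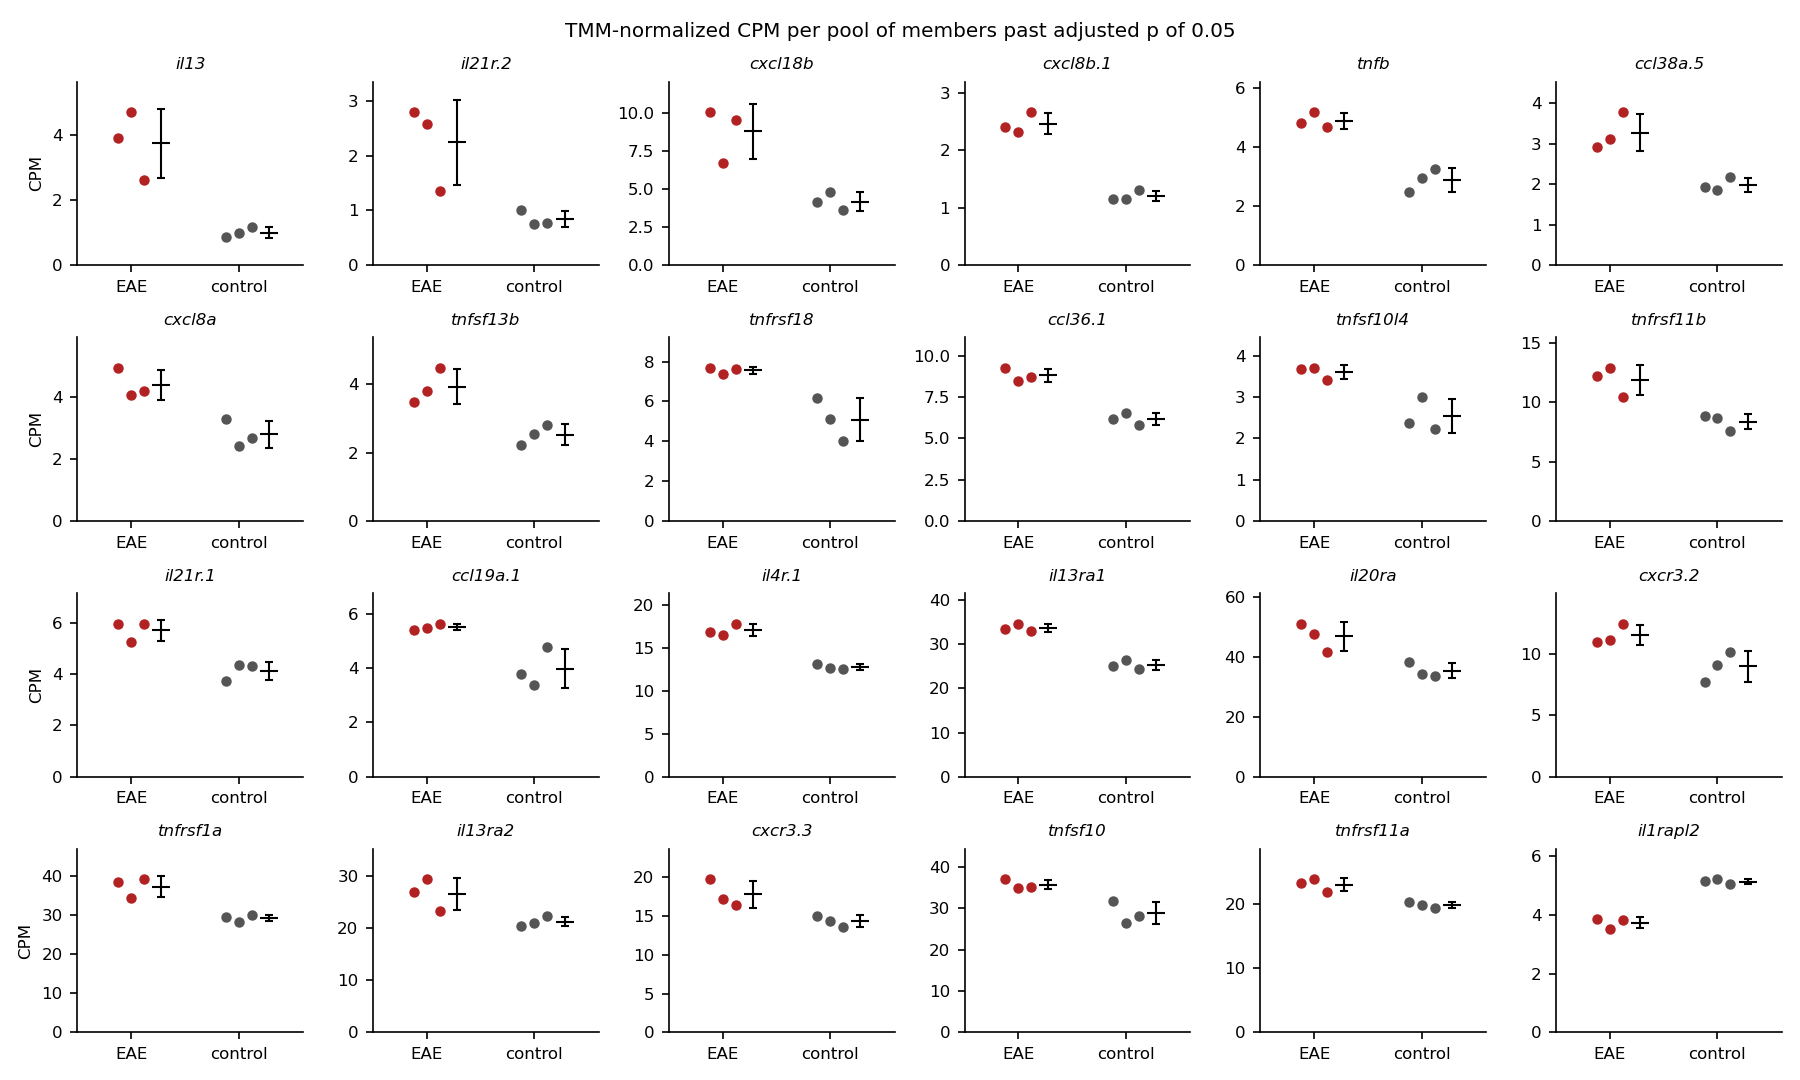
TMM-normalized CPM in each pool (points) for the 24 called members, 1 panel per gene with its own axis from 0, EAE pools left of control pools, with the mean and SD of the 3 pools beside the points. The EAE points lie above the control points in the 23 higher members and below them in il1rapl2, and in il13 the EAE pools average 3.74 CPM and the control pools 1.00 CPM.

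Among the chemokines 3 CXC genes known from neutrophil recruitment and 3 CC genes rose, while the chemokines with the highest CPM did not pass the test. Of 31 tested, 6 rose and none fell (13 higher and 0 lower at an unadjusted p under 0.05 in the same test), which is 19.4% called beside 14.2% of all tested genes, and the median log2 fold change was 0.28. *cxcl18b*, a fish chemokine that recruits neutrophils through Cxcr2, was at 10.1, 6.73 and 9.56 CPM in EAE pools and 4.13, 4.81 and 3.59 CPM in control pools. The groups did not overlap, and EAE replicate 2 was the nearest to the controls (log2 fold change 1.08, SE 0.15, adjusted p = 1.4e-04).

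The *cxcl8* genes are the zebrafish counterparts of interleukin 8, the classical neutrophil attractant, and act on the same receptor. *cxcl8b.1* was at 2.41, 2.33 and 2.67 CPM in EAE pools and 1.16, 1.16 and 1.31 CPM in control pools, a clear separation at a low level (log2 fold change 1.02, SE 0.20, adjusted p = 0.0027). *cxcl8a* was at 4.94, 4.06 and 4.18 CPM in EAE pools and 3.28, 2.43 and 2.67 CPM in control pools (log2 fold change 0.65, SE 0.16, adjusted p = 0.011). Another copy, *cxcl8b.3*, averaged 7.00 CPM in EAE and 6.79 CPM in control pools and did not pass (log2 fold change 0.05, adjusted p = 0.81).

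CC chemokines called higher were *ccl36.1*, *ccl38a.5* and *ccl19a.1*. *ccl36.1* was at 9.28, 8.51 and 8.71 CPM in EAE pools and 6.15, 6.55 and 5.83 CPM in control pools (log2 fold change 0.52, SE 0.11, adjusted p = 0.0032). *ccl38a.5* was at 2.92, 3.12 and 3.77 CPM in EAE pools and 1.92, 1.85 and 2.19 CPM in control pools (log2 fold change 0.71, SE 0.18, adjusted p = 0.013). *ccl19a.1*, of the family that in mammals guides CCR7-bearing dendritic cells and T cells, was at 5.41, 5.49 and 5.64 CPM in EAE pools and 3.78, 3.36 and 4.76 CPM in control pools (log2 fold change 0.46, SE 0.14, adjusted p = 0.036). None of these 3 had overlapping groups, control replicate 3 of *ccl19a.1* lying nearest to its EAE pools. Higher before adjustment only were *ccl38.6*, *cxcl19*, *ccl38.1*, *ccl19a.2*, *ccl35.1*, *ccl33.3* and *cxcl32b.1*, with log2 fold changes of 0.28 to 0.86 and adjusted p of 0.075 to 0.15.

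The chemokine with the highest CPM was *cxcl12a*, which guides migrating lateral line and germ cells through Cxcr4b. Its pools stood at 97.6, 95.4 and 101 CPM in EAE and 103, 92.9 and 95.6 CPM in control larvae, fully intermixed (log2 fold change 0.01, SE 0.05, adjusted p = 0.90), and its copy *cxcl12b* had a log2 fold change of 0.01. *cxcl14*, which epithelia express, averaged 31.8 CPM in EAE and 35.1 CPM in control pools (log2 fold change -0.14, adjusted p = 0.20). *ccl25b*, of the family that draws lymphoid progenitors to the thymus, averaged 45.5 CPM in EAE and 47.3 CPM in control pools (log2 fold change -0.06), and *ccl25a* had 0.05. *ccl19b* averaged 34.3 CPM in EAE and 35.7 CPM in control pools (log2 fold change -0.06). Summed over the class, all chemokines together held 365, 340 and 372 CPM in EAE pools and 338, 342 and 343 CPM in control pools, which overlapped.

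Of 17 tested chemokine receptors 2 rose, both of the Cxcr3 group and neighbours of each other in the genome. The share called, 11.8%, was not above the 14.2% of all tested genes called in either direction. Both calls were higher, and 7.22% of all tested genes were higher. The median level of the class was 2.28 CPM, and of all genes under 5 CPM 4.91% were called and 3.16% were higher. In zebrafish *cxcr3.2* drives macrophage recruitment, and *cxcr3.3* binds the same ligands and restrains that response. *cxcr3.3* was at 19.8, 17.3 and 16.4 CPM in EAE pools and 15.1, 14.4 and 13.5 CPM in control pools (log2 fold change 0.32, SE 0.09, adjusted p = 0.019). *cxcr3.2* was at 11.0, 11.2 and 12.5 CPM in EAE pools and 7.71, 9.09 and 10.2 CPM in control pools (log2 fold change 0.36, SE 0.11, adjusted p = 0.031). In both genes the nearest pools of the 2 groups came within the spread of a group, although the groups did not overlap.

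The Cxcl12 receptors had log2 fold changes of opposite sign, and neither passed the adjustment. *cxcr4a* was at 3.52, 4.55 and 3.07 CPM in EAE pools and 2.77, 2.78 and 2.43 CPM in control pools (log2 fold change 0.48, adjusted p = 0.072). *cxcr4b* was at 11.5, 12.1 and 9.81 CPM in EAE pools and 12.9, 14.5 and 12.6 CPM in control pools (log2 fold change -0.26, adjusted p = 0.083). *ccr7*, the receptor for Ccl19 in mammals, had the lowest log2 fold change of the tested members at -1.04 (SE 0.40, adjusted p = 0.090), from 7, 4 and 9 counts in EAE pools and 10, 10 and 18 in control pools. *ccr12b.2*, *ccr12a* and *ccr6b* were higher before adjustment only, with log2 fold changes of 0.83, 0.45 and 0.47 (adjusted p = 0.071, 0.11 and 0.16). *ccr9a*, the receptor of Ccl25 and the member of this class with the highest CPM, averaged 16.9 CPM in EAE and 18.1 CPM in control pools (log2 fold change -0.09, adjusted p = 0.50). *ccr10*, a homing receptor of skin lymphocytes in mammals, had -0.31 (adjusted p = 0.71). Its counts were 2, 13 and 14 in EAE pools and 11, 12 and 10 in control pools, and without EAE replicate 1 its log2 fold change was 0.23.

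In the TNF superfamily 4 of 9 tested ligands and 4 of 10 receptors rose and none fell (44.4% and 40.0% called, beside 14.2% of all tested genes). Their summed levels did not overlap, at 141, 138 and 138 CPM for the ligands in EAE pools against 126, 122 and 123 CPM in control pools, and at 162, 159 and 160 CPM for the receptors in EAE pools against 142, 140 and 141 CPM. *tnfb*, which with *tnfa* makes up the pair of TNF genes in zebrafish, was at 4.81, 5.20 and 4.68 CPM in EAE pools and 2.47, 2.95 and 3.25 CPM in control pools. The EAE pools stood close together above all controls, 4.90 ± 0.268 against 2.89 ± 0.395 CPM (SD, n = 3 each), with a log2 fold change of 0.76 (SE 0.15, adjusted p = 0.0028). *tnfa* had 11, 12 and 12 counts in EAE pools and 7, 4 and 4 in control pools and fell below the filter.

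*tnfsf10* encodes a TRAIL-type death ligand and was at 37.0, 34.9 and 35.3 CPM in EAE pools and 31.8, 26.5 and 28.2 CPM in control pools (log2 fold change 0.31, SE 0.07, adjusted p = 0.0064). *tnfsf13b*, the counterpart of the B cell survival factor BAFF, was at 3.48, 3.81 and 4.48 CPM in EAE pools and 2.22, 2.55 and 2.82 CPM in control pools (log2 fold change 0.63, SE 0.17, adjusted p = 0.018). *tnfsf10l4*, a further TRAIL-like gene, was at 3.69, 3.71 and 3.42 CPM in EAE pools and 2.37, 3.01 and 2.23 CPM in control pools (log2 fold change 0.52, SE 0.17, adjusted p = 0.043). All 3 separated the groups. The ligand with the highest CPM, *tnfsf10l*, also separated the groups but was not called, with 76.1, 74.8 and 73.5 CPM in EAE pools and 70.1, 70.8 and 70.4 CPM in control pools (log2 fold change 0.09, adjusted p = 0.25). *tnfsf14*, *tnfsf12* and *tnfsf11*, the ligand that drives osteoclast formation, had log2 fold changes of 0.42, -0.15 and -0.10 and adjusted p of 0.16, 0.28 and 0.80.

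On the receptor side, *tnfrsf1a*, the main receptor for TNF, was at 38.5, 34.4 and 39.2 CPM in EAE pools and 29.5, 28.4 and 30.0 CPM in control pools (log2 fold change 0.35, SE 0.06, adjusted p = 0.0017). *tnfrsf11b* encodes osteoprotegerin, the soluble decoy for the osteoclast ligand, and was at 12.2, 12.9 and 10.5 CPM in EAE pools and 8.82, 8.69 and 7.62 CPM in control pools (log2 fold change 0.51, SE 0.10, adjusted p = 0.0034). *tnfrsf11a*, the signalling receptor of that ligand, was at 23.3, 23.9 and 21.9 CPM in EAE pools and 20.4, 19.9 and 19.5 CPM in control pools (log2 fold change 0.21, SE 0.07, adjusted p = 0.048). *tnfrsf18*, known in mammals as GITR on T cells, was at 7.69, 7.37 and 7.65 CPM in EAE pools and 6.15, 5.10 and 4.03 CPM in control pools (log2 fold change 0.57, SE 0.13, adjusted p = 0.0085). The groups were apart in each, and in *tnfrsf18* the controls spread more widely than the EAE pools. *tnfrsf1b*, the other TNF receptor, and *tnfrsf21*, a death receptor, did not pass (log2 fold changes 0.20 and -0.04, adjusted p = 0.21 and 0.72).

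Of the 24 called members, 12 were also called in each of 12 alternative analyses, which changed the test, scaling, filter or block or left out 1 pool. They were *il13*, *il13ra1*, *il4r.1*, *il20ra*, *il21r.2*, *cxcl18b*, *cxcl8b.1*, *ccl36.1*, *tnfb*, *tnfsf10*, *tnfrsf1a* and *tnfrsf11b*, with *il13* between 1.71 and 2.09 and *il21r.2* between 1.21 and 1.66 on the log2 scale when 1 pool was left out. With DESeq2, 15 of the 24 were called (8.32% of all genes), and *ccl19a.1*, *ccl38a.5*, *cxcr3.2*, *cxcr3.3*, *il1rapl2*, *il21r.1*, *tnfrsf11a*, *tnfsf10l4* and *tnfsf13b* were not. The 12 not called throughout kept their direction but lost the call in at least 1 fit without a pool, 9 of them without control replicate 1 and 8 without EAE replicate 1. *ccl19a.1*, *il1rapl2*, *tnfrsf11a* and *tnfsf10l4* were called in 1 of 6 such fits, with adjusted p of up to 0.14, 0.076, 0.13 and 0.15. *cxcr3.2* was called in 2 and *cxcr3.3* and *il21r.1* in 3 of them (adjusted p up to 0.17, 0.11 and 0.11). *cxcl8a* (up to 0.073), *il13ra2* (up to 0.064) and *tnfsf13b* (up to 0.090) were called in 4, and *ccl38a.5* without control replicate 1 (0.055) and *tnfrsf18* without control replicate 3 (0.050) lost the call once.

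Among the 44 members that had counts but were below the filter, several of the best known cytokines were listed with a handful of reads. In a fit without the filter none of them passed the adjustment (smallest adjusted p = 0.13). No change of a single gene was detected at this depth. The 5 at an unadjusted p under 0.05 were *ccl34a.4*, *tnfa*, *il11a* and *il21*, higher in EAE, and *cxcr5*, lower. EAE pools all lay above the control pools in 6 of the 44 and below them in 1. The share among all tested genes was 16.0% in each direction. Over all 153 members with a count, that fit called 23 higher and 1 lower, beside 6.49% and 6.19% of the genes in it, with *il6r* gained and *tnfrsf11a* lost. In that fit *tnfa* had a log2 fold change of 1.07 (SE 0.47, adjusted p = 0.14), and *cxcr2*, the neutrophil receptor of the Cxcl8 and Cxcl18 chemokines, had 0.86 (adjusted p = 0.24) from 11, 12 and 13 counts in EAE pools and 5, 6 and 7 in control pools. All EAE pools lay above all control pools for both. *cxcr5*, a B cell receptor in mammals, went the other way, with 3, 0 and 2 counts in EAE pools and 5, 6 and 4 in control pools. *il6* had 4, 0 and 2 counts in EAE pools and 1 in each control pool, *il10* had 8, 7 and 0 counts in EAE pools and 2, 3 and 9 in control pools, and *ifnphi1* had 7, 3 and 9 counts in EAE pools and 7, 5 and 5 in control pools. The groups overlapped in these last 3.

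Genes that act downstream of the receptors were read from lists of known members. Of all tested genes with a mean of 20 CPM or more, 23.0% were called, against 14.2% of all tested genes. The median level was 33.0 CPM in the JAK and STAT list and 17.1 CPM in the SOCS list. In the list of JAK kinases and STAT factors 4 of 13 rose and none fell (30.8% called, beside 14.2% of all tested genes, median log2 fold change 0.12): *stat1b*, of the interferon pathway, at 20.2 ± 2.15 CPM in EAE and 11.2 ± 1.34 CPM in control pools (SD, n = 3 each, log2 fold change 0.84, adjusted p = 1.7e-05), *stat4*, *tyk2* and *jak2a*. Of 13 tested SOCS genes, which feed back on these receptors, 1 rose and 2 fell (23.1% called, beside 14.2% of all tested genes, median -0.08). The 1 that rose, 7.69%, stood beside 7.22% of all tested genes, and the 2 that fell beside 6.95%. *socs1a* fell to 15.9 ± 0.732 CPM in EAE pools, against 23.8 ± 3.72 CPM in control pools (log2 fold change -0.58, adjusted p = 5.5e-04), while its copy *socs1b* rose (0.78, adjusted p = 0.032). With DESeq2 the SOCS counts were 0 higher and 1 lower. The JAK and STAT count was 2 without EAE replicate 1, control replicate 1 or control replicate 3, the SOCS count higher was 0 without any 1 pool except control replicate 1, and the SOCS count lower was 1 without EAE replicate 1 or 3 or control replicate 2 or 3.

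In the TNF, IL-1 and NF-kB list 9 of 32 rose and 1 fell, with a median log2 fold change of 0.15. The share called was 31.2%, beside 14.2% of all tested genes and 23.0% of those at 20 CPM or more. The median level of this list was 24.6 CPM. The NF-kB subunits *nfkb2*, *nfkb1* and *rela* rose, with log2 fold changes of 0.35, 0.38 and 0.23. The subunits *rel* and *relb* were not called and their groups overlapped (log2 fold changes 0.20 and 0.14, adjusted p = 0.11 and 0.15). Inhibitors of the pathway did not move one way: *nfkbie*, an inhibitor of NF-kB, and *irak3*, a negative regulator of IL-1 receptor signalling, rose as well (log2 fold changes 0.30 and 0.38, adjusted p = 0.0067 and 0.030). The gene that fell was *nfkbiab*, another inhibitor of NF-kB, at 88.1 ± 6.41 CPM in EAE and 121 ± 9.19 CPM in control pools (SD, n = 3 each, log2 fold change -0.45, adjusted p = 1.1e-04). Of 15 genes known to be induced in inflammation 5 rose and 1 fell, with a median log2 fold change of 0.10. The share called was 40.0%, beside 14.2% of all tested genes and 23.0% of those at 20 CPM or more, at a median level of 23.5 CPM. Those that rose were *lect2l*, which is also a neutrophil marker, *irg1*, *mmp9*, *cp* and *hp*, with log2 fold changes of 0.27 to 0.69. The prostaglandin synthase gene *ptgs2a* fell (-0.37). The other 9 were not called, among them *saa* (0.46), *hamp* (0.06) and *nos2a* (-0.17). Of 39 tested cytokine and receptor genes outside the symbol rule, 4 rose and 2 fell. Their share called, 15.4%, was near the 14.2% of all tested genes, and so was their median of 0.03. The 4 were the death receptor *fas* (0.67), *cd40* (0.47), *csf2rb* (0.35) and *lifrb* (0.30), and the 2 were *cntfr* (-0.25) and the prolactin receptor *prlra* (-0.27). With DESeq2, 4 genes of the NF-kB list and 2 outside the rule were higher. The NF-kB count was 4 without EAE replicate 1 and 5 without any 1 of the control pools, and the count higher outside the rule was 2 without EAE replicate 1 or 3 or control replicate 1 or 3.

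**Figure D4:**
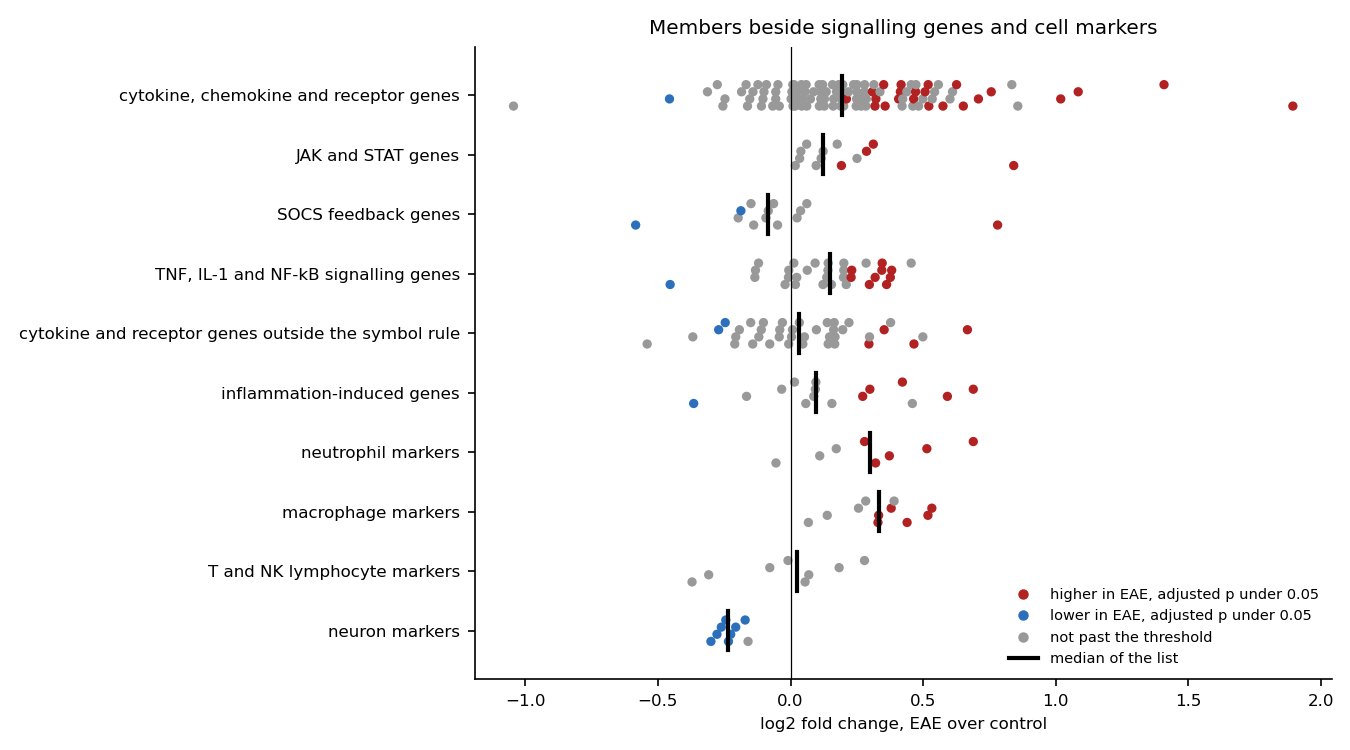
Log2 fold change of EAE over control for each tested gene of the members, of 5 lists of signalling, cytokine and inflammation genes and of 4 lists of cell markers, 1 row per list, with a black line at the median. The medians are 0.19 for the members, 0.33 for macrophage markers, 0.30 for neutrophil markers, 0.02 for T and NK lymphocyte markers and -0.23 for neuron markers.

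Several markers of macrophages and neutrophils, leukocytes that make and answer many of these signals, were higher in EAE larvae. Of 11 macrophage markers 6 rose and none fell (54.5% called, beside 14.2% of all tested genes), with a median log2 fold change of 0.33. Their summed level was 256 to 297 CPM in EAE pools against 208 to 227 CPM in control pools. The 5 not called, *csf1ra*, *c1qa*, *c1qb*, *c1qc* and *spi1a*, had log2 fold changes of 0.07 to 0.39. Of 8 neutrophil markers 5 rose and none fell (median 0.30). The share called was 62.5%, beside 14.2% of all tested genes and 23.0% of those at 20 CPM or more. Not called were *mpx*, *ncf1* and *cpa5*, with log2 fold changes of 0.11, 0.17 and -0.06. The summed level of the 8 neutrophil markers overlapped, at 1669 to 1954 CPM in EAE and 1697 to 1992 CPM in control pools, and 1 gene, *cpa5*, held most of it. The study used this carboxypeptidase gene as a marker of the exocrine pancreas. It was at 1443 CPM in EAE and 1499 CPM in control pools, and the part of neutrophils in this level was not tested. Without *cpa5*, which was set aside after its level had been seen, the sum was 352 to 392 CPM in EAE and 288 to 321 CPM in control pools. Of 8 tested T and NK lymphocyte markers none was called by edgeR. At an unadjusted p under 0.05 there was 1, *runx3*, and 1 was called without control replicate 2. The sum of the list was 136 to 144 CPM in EAE and 128 to 143 CPM in control pools. Most of that sum was held by *gata3* (71.6 CPM in EAE and 72.1 CPM in control pools) and *runx3* (45.5 and 40.1 CPM), so it says little of the others. Of the 8 log2 fold changes 4 were above 0 and 4 below, from -0.37 in *cd4-1* to 0.28 in *nkl.2*. Among markers of other tissues in the whole larva, 3 of 5 for liver rose (60.0% called). For skin epithelium 3 of 6 rose and 2 fell (83.3% called). On the hair cell and lateral line list 2 of 6 fell (33.3% called), *otofb* and *prox1a*, which also marks liver cells. These shares stand beside 14.2% of all tested genes and 23.0% of those at 20 CPM or more, and each list is short. None of 5 for enterocytes was called. No marker of these lists found among the named rows was at 0 in all pools, but *cd8a* and *nkl.3* had few counts and fell below the filter. The part of the macrophage and neutrophil markers in the higher cytokine, chemokine and receptor genes was not tested.

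Several members lie beside close relatives in the genome, and reads from near-identical copies may be shared between them, since the treatment of reads with several alignments is not given in the sources used here. By their RefSeq names 150 members (93.8%) could be placed, and 26 pairs of members were direct neighbours. Both genes were tested in 10 of these pairs and both were called in 2, *cxcr3.2* with *cxcr3.3* and *il21r.1* with *il21r.2*. Their separate calls may therefore not be independent.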

How the data were processed

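Whole-larva RNA from 3 EAE and 3 control pools was poly-A selected and sequenced as single-end reads. The authors aligned the reads to GRCz10 with STAR and deposited raw counts per gene symbol. DESeq2 is also listed in the submitters' processing notes. The counting program, strand setting and annotation are not given in the sources used here. Of 30714 rows, 1 without a name (1.49% to 1.57% of counts) was left out and 17 with date-like names stayed in the fit unnamed.

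Counts were analysed with edgeR 4.0.16 in R 4.3.3: filterByExpr, TMM factors (0.986 to 1.02), and the quasi-likelihood F test between groups. The SE was the absolute log2 fold change over the square root of F. Over all genes the median SE was 0.0955, at a biological coefficient of variation of 0.0525. Replicate pools differed by more than counting noise (chi-square per degree of freedom 3.56 to 5.07 within groups). The fit was tested on simulated data in which 100 genes changed 1.5-fold and 100 changed 2-fold, among 21485 tested. In the larvae 3063 of 21617 tested genes were called, so an adjusted p under 0.05 was harder to reach in the simulation. The shares recovered may therefore be lower than those of the fit to the larvae. Of 1.5-fold changes the fit recovered 22.4% under 5 CPM and 96.1% at 5 CPM or more. Of 2-fold changes it recovered 82.1% and 100%. A member under 5 CPM that did not pass may therefore still differ by 1.5-fold. Alternatives used DESeq2 1.42.0, limma 3.58.1 (voom), relative log expression factors, other filters, a replicate block, or left out 1 pool.

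Named were all called members, those with an unadjusted p under 0.05, the 3 most abundant per role, the extremes, and 33 well-known genes, of which 31 were matched. The name *ifng1* was not matched, as interferon gamma is listed as *ifng1-1* and *ifng1-2*, both below the filter. *ifng1-1* had 7, 4 and 7 counts in EAE pools and 1, 5 and 1 in control pools. *ifng1-2* had 4, 2 and 5 counts in EAE pools and 2, 3 and 3 in control pools. The members and lists were chosen with earlier results of these data known. Neighbours were taken from RefSeq names of GRCz12tu, another build, so no positions are given.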

Additional observations from a re-analysis of the deposited data

How the results depend on the processing

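Members called were 23 higher and 1 lower. With DESeq2 they were 15 and 0 (all genes 947 and 851, against 1560 and 1503), the 15 all being among the 24. Leaving out 1 pool gave 15 to 20 members higher and 0 to 2 lower, and 924 to 1497 genes higher and 717 to 1499 lower. The fewest members were called without control replicate 1 (15 higher, 0 lower, all genes 953 and 803) and the fewest genes without EAE replicate 1 (17 members higher, 924 and 717 genes); without control replicates 2 and 3, 914 and 941 genes were lower. Limma-voom, relative log expression factors, a minimum of 10 counts and no filter gave 22 to 23 members higher and 1 lower. The median log2 fold change of tested members stayed between 0.16 and 0.24.

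The replicate numbers did not pair the pools (correlation of same-numbered deviations -0.02, -0.05 and -0.12). The replicate block gave 21 members higher and 1 lower, and 1216 and 1120 genes, losing *tnfrsf11a* (adjusted p = 0.081) and *tnfsf10l4* (0.063).

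The sign of 9 uncalled log2 fold changes turned when a pool was left out, and the cause was not tested. Their ranges over the 6 fits were -0.0823 to 0.0039 for *tnfrsf21*, -0.72 to 0.23 for *ccr10*, -0.17 to 0.0421 for *ccl19b*, -0.12 to 0.16 for *ccl25a*, -0.0175 to 0.0545 for *cxcl12a*, -0.0298 to 0.0442 for *cxcl12b*, -0.023 to 0.069 for *il16*, -0.0348 to 0.12 for *il34* and -0.27 to 0.0256 for *il7r*. Depth limits the 51 members below the filter, where a few counts decide a fold.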
